A study of Zea mays with 9 samples.

Results

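The regions enriched in the GFP-ZmbZIP60C pull-down over the GFP vector control form 1 deposited peak list of 3042 regions, out of 3324 regions in the 2 lists of the series. Every row of that list was taken. ZmbZIP60 is a maize transcription factor with a basic leucine zipper (bZIP), a domain that lets a pair of factors grip DNA. In plants, bZIP60 works in the unfolded protein response: when misfolded proteins gather in the endoplasmic reticulum (ER), the sensor IRE1 splices the bZIP60 mRNA, and the factor made from the spliced form enters the nucleus and activates genes for chaperones and protein folding. Factors of this kind are known to bind short DNA elements, many of them with the core ACGT. Which genes and DNA elements lay at the peaks was not analysed here.

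The pull-down group was GFP-ZmbZIP60C, 3 libraries of leaf protoplasts (cells freed of their walls) from the maize inbred line B73 that were transformed with the GFP fusion. The group it was set against was the vector control, 3 libraries of B73 leaf protoplasts with the GFP vector alone. Both groups carry the same tunicamycin label (5 mg per ml in DMSO, given to the seedlings). Tunicamycin blocks N-glycosylation and causes ER stress, and no arm without it was analysed here. An antibody against GFP was used to enrich the bound chromatin, which was then sequenced (ChIP-seq). The promoter that drives the fusion is not named in the labels, nor is the meaning of the final C in its name, and a peak list cannot check the cell type against markers. After filtering, 18726110 tags of the merged pull-down stood against 47193255 tags of the merged control. Libraries were merged by group before the call, so the values carry no replicate error. No difference between groups of peaks was tested, and intervals cover counting error alone. The merged pull-down's name carries the numbers 1 and 3, so the list may rest on fewer than the 3 libraries of the group.

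ZmbZIP60 peaks were found on all 10 chromosomes and fell into 2 kinds. Small, mostly single peaks of few tags lay scattered along the chromosomes and more often towards the ends. Tall and often long peaks, at which the control was high as well, were in part gathered in short stretches of 9 chromosomes and made up most of those on unplaced contigs. In all, the peaks covered 1712 kb, which is 0.0634% of the 2.7 Gb that the call took as the effective genome size. The 2489 chromosomal peaks held 1263 kb of this, and the 553 peaks on contigs held 449 kb, or 26.2%.

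The number of peaks per chromosome ran roughly with chromosome size. Chromosome 1 held 348 peaks, chromosome 2 held 322, chromosome 3 held 273, chromosome 4 held 265 and chromosome 5 held 262. Chromosome 6 held 272, chromosome 7 held 195, chromosome 8 held 163, chromosome 9 held 246 and chromosome 10 held 143. Chromosomes 6 and 9 stood above their size in this order. Per Mb, counted from the first base to the end of the last listed peak, the 10 chromosomes together had 1.19 peaks. Chromosome 6 had the highest density, 1.57 peaks per Mb (95% Poisson interval 1.39 to 1.77), and chromosome 9 was next with 1.54 (interval 1.36 to 1.75). Chromosome 8 had the lowest, 0.905 (interval 0.772 to 1.06), and chromosome 10 had 0.955 (interval 0.805 to 1.12). The intervals of chromosomes 6 and 9 overlapped each other, as did those of chromosomes 8 and 10, whereas those of the first pair lay above those of the second. The other 6 chromosomes lay between 1.07 on chromosomes 4 and 7 and 1.32 on chromosome 2. The intervals treat peaks as independent, and many peaks lay close together, so they may be too narrow.

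Counted as loci, where peaks with gaps under 10 kb were joined, the chromosomes were closer. There were 1885 loci in the list and 1749 on chromosomes. The density ran from 0.669 loci per Mb on chromosome 4 (interval 0.571 to 0.779) to 0.931 on chromosome 5 (interval 0.808 to 1.07), and chromosomes 6 and 9 had 0.917 and 0.903. The order therefore depended on the unit. Chromosome 6 led by peaks and chromosome 5 by loci, and the lowest was chromosome 8 by peaks and chromosome 4 by loci.

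**Figure D1:**
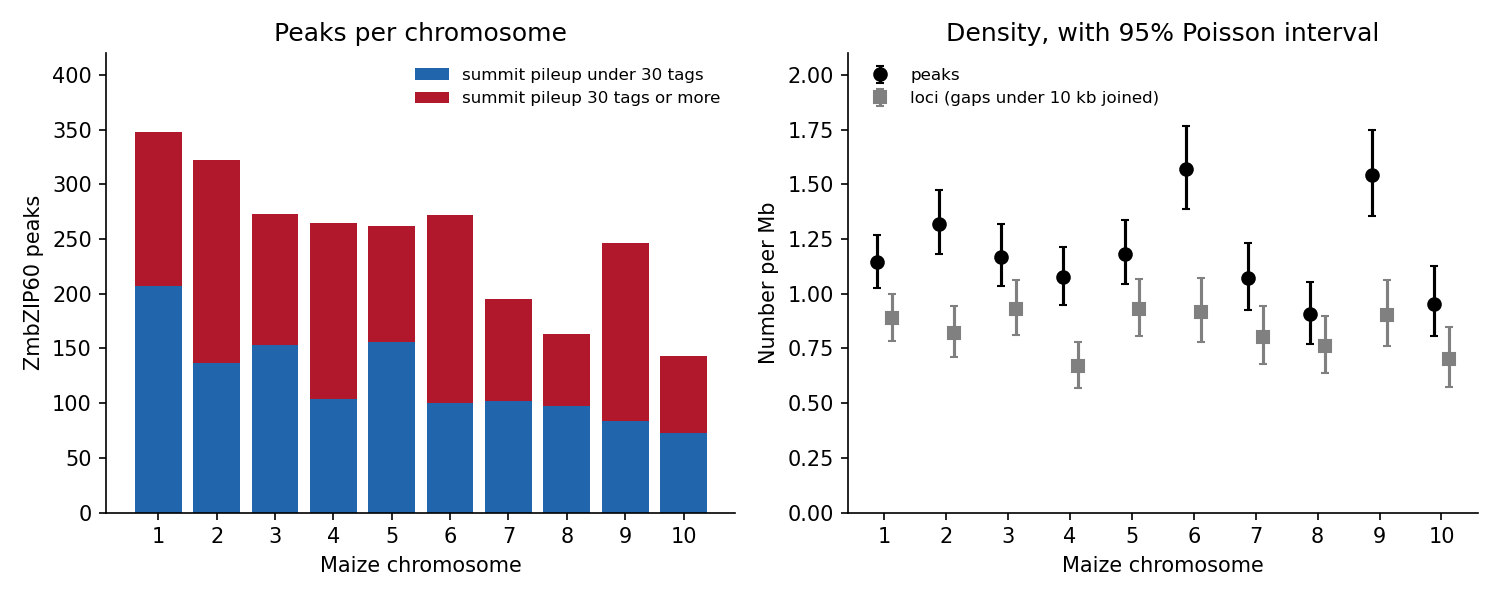
Left, the number of ZmbZIP60 peaks on each maize chromosome, split by summit pileup (under 30 tags in blue, 30 tags or more in red). Right, peaks (circles) and loci (squares) per Mb with 95% Poisson intervals; chromosomes 6 and 9 stand out in peaks (1.57 and 1.54 per Mb) but not in loci (0.917 and 0.903 per Mb).

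Pileup, the number of extended tags of the pull-down that cover a summit, separated the 2 kinds. It ran from 8 to 400 tags, and 400 is the ceiling that the extension of 200 bp sets when duplicate tags are dropped on both strands. On the chromosomes the median was 32 tags (quartiles 16 and 90). There were 421 chromosomal peaks under 15 tags, 485 from 15 to under 20 and 307 from 20 to under 30. A further 104 had 30 to under 40, 205 had 40 to under 60 and 240 had 60 to under 80. The last 2 ranges are wider, so these counts show no gap at 30 tags. In bins of equal width on a log scale, 363 chromosomal peaks had 16 to 19 tags. Only 63 had 38.1 to 45.3 tags, and 167 had 64 to 76.1. A value of 30 tags, set below this low point with the data in view, is used below. It splits the chromosomal peaks into 1213 low-pileup and 1276 high-pileup peaks. By chromosome, the low-pileup share ran from 34.1% on chromosome 9 and 36.8% on chromosome 6 to 59.5% on chromosomes 1, 5 and 8. High-pileup peaks had densities of 1.02 per Mb on chromosome 9 and 0.992 on chromosome 6, and 0.367 on chromosome 8. Low-pileup peaks spread more evenly, between 0.422 per Mb on chromosome 4 and 0.705 on chromosome 5.

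The control level was higher where the pileup was higher. At low-pileup peaks the pull-down had a median of 16 tags and the vector control a median level of 2.38, given on the scale of the pull-down. At high-pileup peaks the pull-down had a median of 88 tags and the control one of 32.5. The mean control level over the genome on this scale was 1.39. Across the 2489 chromosomal peaks, Spearman's rho between pileup and control level was 0.909. Both come from the same regions, share their mappability, and must lie a set distance apart for a region to be listed, so this is a description of the list. The fold enrichment, the authors' ratio of the summit pileup to the local control, had a median of 4.77 at low-pileup peaks (quartiles 4.14 and 5.78) and 2.85 at high-pileup peaks (quartiles 2.41 and 3.29). The call lists lower folds where the control is higher, so these medians do not rank the binding of the 2 kinds.

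A small set of peaks stood above the split of 30 tags over a low control. It held 75 chromosomal peaks with at least 30 tags in the pull-down and under 20 unscaled tags in the control. Their pileups ran from 30 to 51 tags, with a median of 34. Their median control level was 2.78 on the scale of the pull-down, near the 2.38 of low-pileup peaks. The split, more than the control, thus sets them apart from low-pileup peaks. Their median fold was 9.59 (quartiles 7.67 and 11.05), and their median length was 364 bp. A high fold follows from this choice. Only 34 peaks of the 3042 reached a fold of 10, with pileups of 27 to 51 tags, and 31 of them belonged to this set, the other 3 having under 30 tags.

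**Figure D2:**
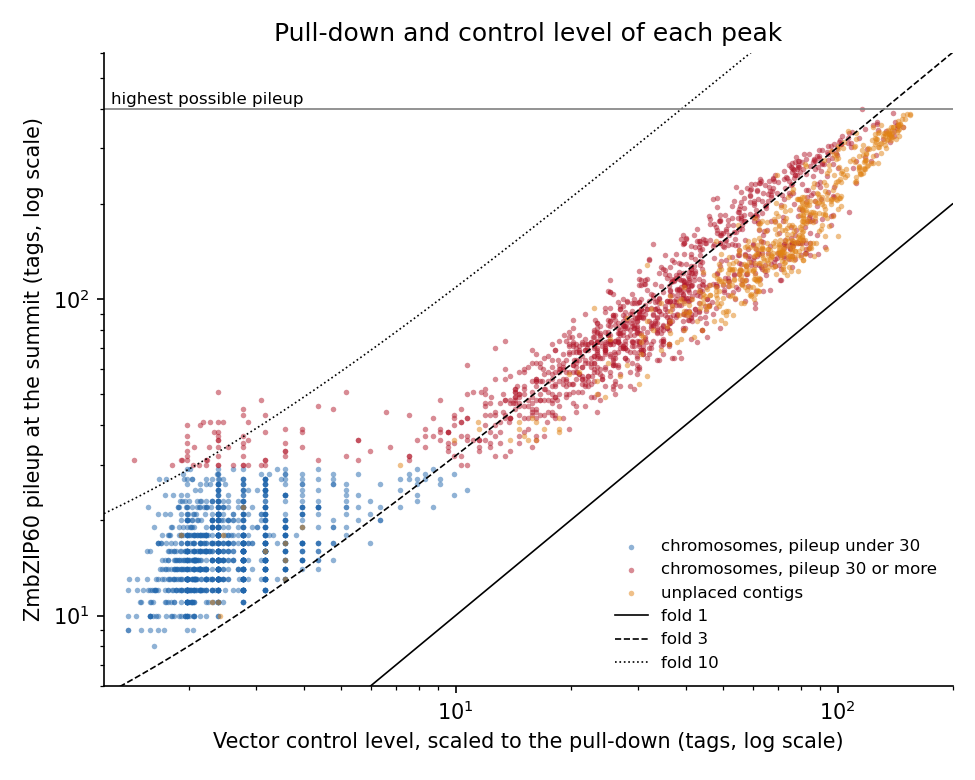
Summit pileup of each of the 3042 ZmbZIP60 peaks (y axis, tags) against the vector control level behind it (x axis, scaled to the pull-down), both on log scales; lines mark folds of 1, 3 and 10 and the ceiling of 400 tags. Low-pileup chromosomal peaks form a cloud around a control level of 2.38, and high-pileup and contig peaks form a band that climbs with the control level to the ceiling.

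On each chromosome the peak of highest fold had a moderate pileup over a low control level. Over the 10 chromosomes these best peaks had lengths of 307 to 530 bp, with a median of 426.5 bp against 316 bp over all chromosomal peaks. They had pileups of 30 to 51 tags and folds of 10.1 to 15.4. The highest was chr5:71289500-71290025, where 51 tags of the pull-down (95% Poisson interval 38.0 to 67.1) stood over a control level of 2.38. Its summit was base 298 of 526, close to the middle. On chromosome 4 the best was chr4:87427753-87428160, with 37 tags (interval 26.1 to 51.0) over a control level of 1.98 and a fold of 12.7. On chromosome 2, chr2:63036890-63037297 had 38 tags over 2.38 and a fold of 11.5. On chromosome 8, chr8:169433433-169433877 had 31 tags over 1.91 and a fold of 11.0. Chromosomes 10 and 3 had the lowest of these maxima, with a fold of 10.8 at chr10:113484061-113484367 (34 tags) and of 10.1 at chr3:155197327-155197827 (30 tags). The count intervals of the peak on chromosome 3 (20.2 to 42.8 tags) and of the peak on chromosome 5 overlapped. These intervals cover the pileup alone and leave out the error of the control, whose unscaled levels were 3.62 to 6 tags. The order of these maxima by fold is therefore uncertain. Of these 10 peaks, 9 were alone in their locus, against 60.1% of all chromosomal peaks. None of the 10 overlapped a ZmbZIP17 peak, against 7.51% of all chromosomal peaks and 1.47% of those alone in their locus. With 10 peaks, no difference from either share can be shown. Among the 10 highest folds of the whole list, 4 lay on chromosome 1. Besides its best peak at chr1:197077441-197077794, with 41 tags and a fold of 13.2, these were chr1:280773291-280773654 with 41 tags, chr1:293281739-293282035 with 41 tags and chr1:250046414-250046831 with 45 tags, at folds of 12.8, 12.4 and 12.2.

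The peak of highest pileup on each chromosome stood over a high control level. These 10 peaks had pileups of 272 to 400 tags, unscaled control levels of 212 to 360 tags, and folds of 2.47 to 3.43. Only the peak on chromosome 2, chr2:220735787-220736714, reached the ceiling of 400. The next were chr7:46253212-46274866 with 388 tags, chr1:56683651-56685644 with 364 (tied with another peak of that chromosome), chr4:113427865-113429121 with 358 and chr6:13520905-13521514 with 354. Chromosome 8 again stood lowest, with 272 tags at chr8:150837339-150837737. Of the 11 highest pileups in the whole list, the last 2 of them tied at 364 tags on chromosome 1, 4 were chromosomal and 7 were on contigs, with up to 386 tags on B73V4_ctg202. Near the ceiling, a stronger enrichment could not have been shown. The control was thinned to 1 tag per position as well, which also limits its level. At the 103 peaks of the list with 300 tags or more, the unscaled control level reached up to 391 tags. Its median there was 334 tags, against a median pileup of 332 tags. The median fold of 2.49 at these peaks thus depended on scaling the control down. How far the thinning of the control raised these folds was not tested.

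Along the chromosomes the 2 kinds followed different courses. Each chromosome was divided into 10 equal segments up to its last listed peak. Low-pileup peaks were densest in segment 10, at 1.36 per Mb over the 10 chromosomes, and had 0.788 per Mb in segment 1. They were sparsest in segments 3, 4 and 5, at 0.267, 0.248 and 0.253 per Mb. High-pileup peaks had no such course. From segment 1 to segment 10 their density per Mb was 1.07, 0.325, 0.554, 0.898, 0.707, 0.358, 0.726, 0.391, 0.444 and 0.621. Single chromosomes weighed heavily in these sums. In segment 1, chromosomes 6 and 1 held 78 and 56 of 224 high-pileup peaks. In segment 4, chromosomes 2 and 9 held 55 and 38 of 188. The outer 4 segments, 2 at each end, make up 40% of the span. They held 737 of 1213 low-pileup peaks, or 60.8% (exact 95% interval 57.9 to 63.5), and 515 of 1276 high-pileup peaks, or 40.4% (interval 37.7 to 43.1). Both intervals treat neighbouring peaks as independent and may be too narrow. The low-pileup share was the higher one on 9 of 10 chromosomes, and chromosome 8 was the exception, with 59.8% of low-pileup and 65.2% of high-pileup peaks. The contrast was widest on chromosome 2, with 71.5% and 31.9%, and on chromosome 9, with 65.5% and 29.0%. The 75 high-pileup peaks with a low control had 41 in the outer segments, or 54.7% (interval 42.7 to 66.2). In maize, genes are known to lie more densely towards chromosome ends and repeated DNA around the centromeres. Neither was measured here, and their part in these courses was not tested.

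**Figure D3:**
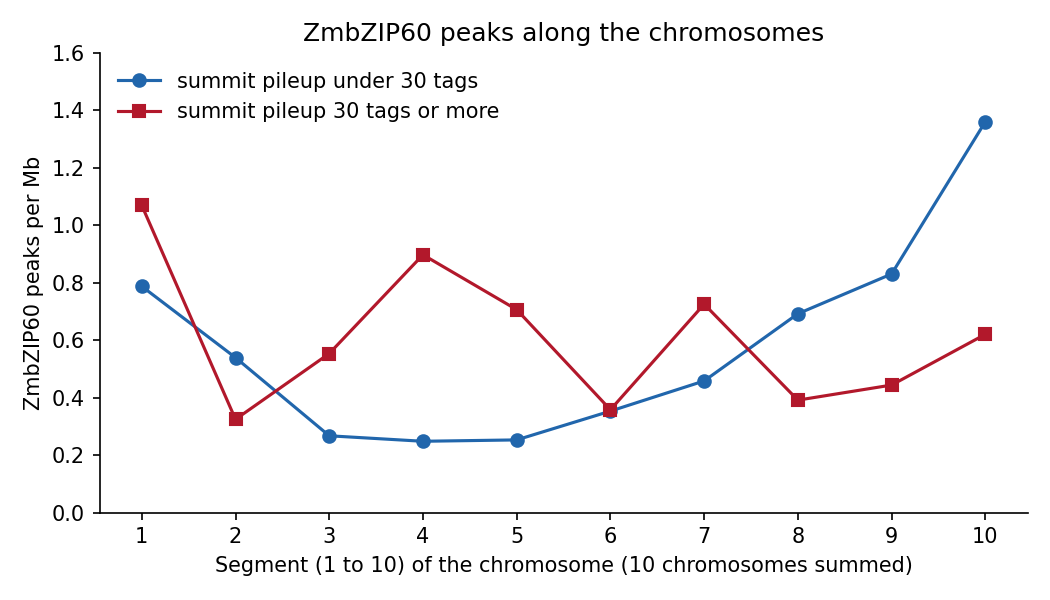
ZmbZIP60 peaks per Mb (y axis) in 10 equal segments of the chromosomes (x axis, 10 chromosomes summed), for peaks with a summit pileup under 30 tags (blue circles) and of 30 tags or more (red squares). The low-pileup line is lowest in segment 4 (0.248 per Mb) and highest in segment 10 (1.36), whereas the high-pileup line is highest in segments 1 and 4 (1.07 and 0.898).

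Part of the high-pileup peaks were concentrated in few places. Of 2100 windows of 1 Mb, 996 held no ZmbZIP60 peak (47.4%), 595 held 1, 489 held 2 to 9 and 20 held 10 or more. Those 20 windows held 435 chromosomal peaks, or 17.5%, and only 17 of the 435 were low-pileup peaks. The window with most was chr4:115000001-116000000, with 54 peaks. It was followed by chr2:79000001-80000000 with 44, chr6:13000001-14000000 with 43 and chr4:160000001-161000000 with 32. The first Mb of chromosome 1 held 23 peaks, 0 of them low-pileup. Windows with 10 or more peaks took 32.5% of the peaks of chromosome 4, 32.0% of those of chromosome 6 and 31.3% of those of chromosome 9, against 4.40% on chromosome 3 and 0 on chromosome 8. Outside them, chromosomes 6 and 9 had 1.07 and 1.06 peaks per Mb, close to chromosome 2 with 1.07 and chromosome 5 with 1.02. Chromosome 3 then had the highest density, 1.12, and chromosome 4 the lowest, 0.726. Low-pileup peaks were at most 6 to a window. Of the 7 windows with 6, all of whose peaks were low-pileup, 4 lay between 207000001 and 212000000 on chromosome 5, and these windows were chosen after their values were seen.

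Distances between neighbouring summits were of 2 orders. On the chromosomes the median distance was 327486 bp, with quartiles of 3226.5 bp and 1090103.5 bp. Of 2479 neighbouring pairs, 270 were under 1 kb apart, 460 were 1 to 10 kb apart and 228 were 10 to 100 kb apart, whereas 853 were 100 kb to 1 Mb and 668 were over 1 Mb apart. The range between 10 and 100 kb was the sparsest of these. Taken alone, low-pileup peaks had a median distance of 798690 bp, and 2.16% of their neighbours were under 1 kb away. High-pileup peaks had a median distance of 10361 bp, and 19.0% were under 1 kb away. The closest chromosomal pair, 345 bp apart, was on chromosome 2 at summits 178889946 and 178890291, with 67 and 79 tags. The widest stretch without a summit was on chromosome 10, where 13005725 bp lay between summits 22057101 and 35062826. The smallest gap between peaks of the list was 148 bp, just above the tag size of 147 bp.

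Neighbours under 10 kb apart were mostly of the same kind. In 626 of 730 such pairs both peaks had a high pileup (85.8%), in 81 both had a low one (11.1%) and 23 pairs were mixed (3.15%). Among the 1081 pairs 10 kb to 1 Mb apart, 34.97% were mixed.

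**Figure D4:**
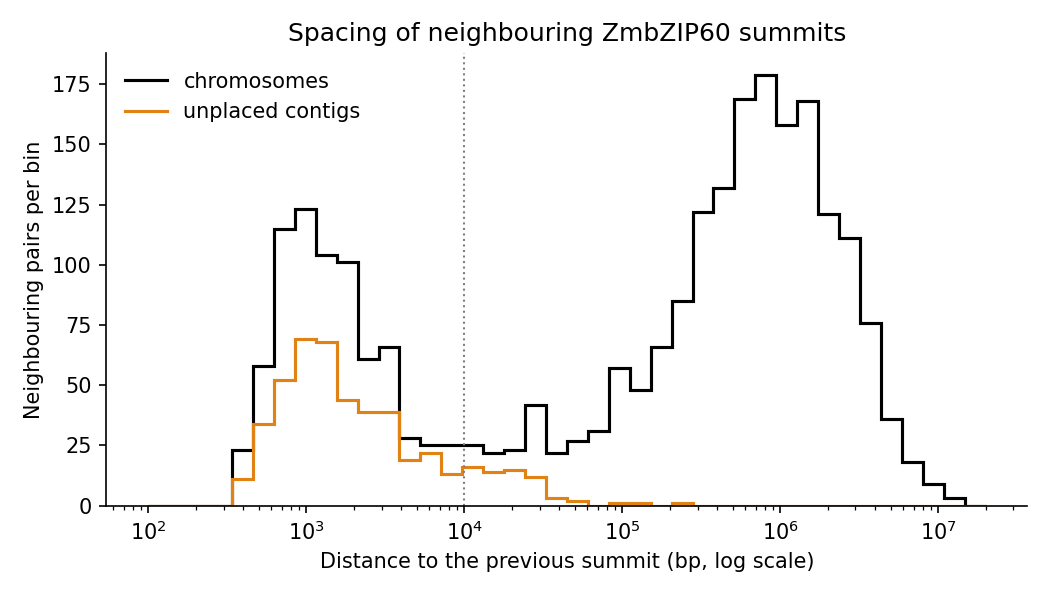
Number of neighbouring ZmbZIP60 summit pairs (y axis) by their distance (x axis, log scale) on chromosomes (black) and contigs (orange); the dotted line marks 10 kb. Chromosomal pairs form a group near 1 kb and a larger one near 1 Mb, and contig pairs fall in the short group, with a median of 1591 bp.

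Most loci held a single peak, and a few held many. On the chromosomes, 1497 loci held 1 (60.1% of chromosomal peaks), 198 held 2 to 4, 37 held 5 to 9 and 17 held 10 or more. The single peaks had a median pileup of 19 tags and a median length of 289 bp. Peaks in loci of 5 or more had a median pileup of 98 tags and a median length of 498 bp. Chromosome 8 had 117 single peaks of 163 (71.8%) and no locus above 4 peaks, whereas chromosomes 6 and 9 had 46.0% and 46.3% single peaks. The 2 largest loci held 30 peaks each. The first, chr4:160247893-160316696, was covered by peaks over 56.4% of its 68804 bp, with pileups of 32 to 153 tags and a median of 72. The second, chr2:79917643-79977058, was covered over 58.7%, with pileups of 33 to 115 tags and a median of 70. A locus of 19 peaks at chr9:6513926-6556182 was covered over 78.8%. By contrast, the neighbouring loci chr4:115254706-115287108 (17 peaks) and chr4:115311028-115348428 (16 peaks) were covered over 15.7% and 14.9%, with median pileups of 47 and 41 tags. Dense loci therefore differed in whether their peaks were separate spots or nearly ran together.

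Peak length had a floor of 200 bp, the extension of the call, and a long tail. The median was 323 bp, with quartiles of 245 and 484 bp. There were 180 peaks of exactly 200 bp (5.92%), 1161 of over 200 and under 300 bp, 978 of 300 to under 500 bp, 421 of 500 to under 1000 bp and 302 of at least 1000 bp. The last group made up 9.93% of the peaks but 43.3% of the covered bases. Low-pileup peaks had a median length of 269 bp and a maximum of 1090 bp. High-pileup peaks had a median of 385 bp and a maximum of 21655 bp. Length was greater at higher pileups: the median was 250 bp below 15 tags, 282 bp at 15 to under 30 tags, 359 bp at 100 to under 200 tags and 796 bp at 200 tags or more. Spearman's rho was 0.479 over all 3042 peaks, and a taller peak crosses the calling threshold over a wider stretch by construction. The longest chromosomal peak was chr7:46253212-46274866, 21655 bp in a locus of 15 peaks, and it also had the highest pileup of chromosome 7. It was followed by chr2:176905451-176916759 (11309 bp, 343 tags) and chr2:79842357-79851189 (8833 bp, 132 tags). Not all long peaks were tall: chr3:26960126-26966630 spanned 6505 bp with 72 tags and chr4:160303045-160310740 spanned 7696 bp with 76. Both, and chr2:79842357-79851189, overlapped a ZmbZIP17 peak. Of the longest peaks of the 10 chromosomes, 2 did so in all, against 7.51% of all chromosomal peaks and 14.1% of the high-pileup ones.

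Summits lay near the middle of short peaks and at varied positions in long ones. With 0 as the start of a peak and 1 as its end, the median summit position was 0.498, with quartiles of 0.389 and 0.613. The central part of the peak, from 0.333 to 0.667, held 1966 of 3042 summits, or 64.6% (exact 95% interval 62.9 to 66.3). By length, the share was 56.1% at 200 bp, 82.6% from there to under 300 bp, 65.95% at 300 to under 500 bp, 39.2% at 500 to under 1000 bp and 31.8% at 1000 bp or more (interval 26.6 to 37.4). Summits spread evenly along the peaks would give 33.3%, which lies within the interval of the longest group. The summits of the longest group were not evenly spread, however. The first and last 0.05 of the length held 1 and 2 of them, against 27 from 0.1 to 0.15 and 25 from 0.85 to 0.9. In that group, 62 of 302 summits (20.5%) were within 200 bp of an end. Pileup gave no such order: the central share was 48.7% in peaks under 15 tags, 69.96% at 15 to under 30 tags, 70.6% at 30 to under 100 tags and 51.9% at 200 tags or more. Among the longest peaks, an off-centre example is chr10:90499032-90503237, 4206 bp long, whose summit stood at 0.0476 of its length. Of the 75 high-pileup peaks with a low control, 64 had a central summit, or 85.3% (interval 75.3 to 92.4). Among the 34 peaks with a fold of 10 or more it was 32, or 94.1% (interval 80.3 to 99.3).

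**Figure D5:**
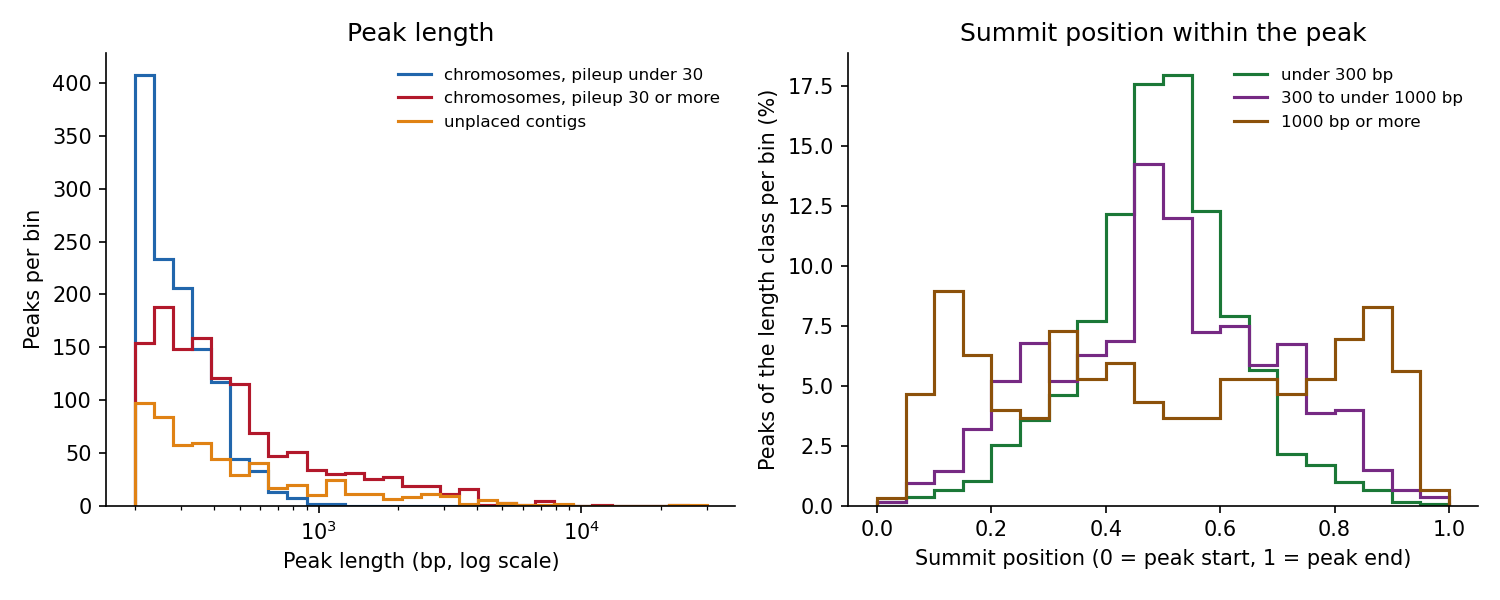
Left, number of ZmbZIP60 peaks (y axis) by length (x axis, log scale) for low-pileup chromosomal peaks, high-pileup chromosomal peaks and contig peaks. Right, percentage of the peaks of a length class (y axis) by summit position (x axis, 0 start and 1 end); peaks under 300 bp are centred, and those of 1000 bp or more spread their summits along the peak (31.8% in the central part).

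The unplaced contigs held almost only high-pileup peaks. Of the 553 contig peaks, 11 had a pileup under 30 tags. Their median pileup was 150 tags over a control level of 73.0 on the scale of the pull-down. Unscaled, the median control level was 184 tags, above the median pileup. Their median fold was 2.24, which thus depended on scaling the control down. Whether the contig peaks mark binding was not tested. Their median length was 369 bp. Contigs also held 172 of the 337 peaks with 200 tags or more and 70 of the 103 with 300 tags or more. There were 78 contigs with a peak. Of these, 16 had 1 peak, and 26 had 10 or more, which together held 357 peaks (64.6%). B73V4_ctg167 led with 24 peaks within 53511 bp and a median pileup of 204 tags. B73V4_ctg154 had 21 (median 138), B73V4_ctg238 had 20 (median 230.5), B73V4_ctg216 had 19 (median 248) and B73V4_ctg205 had 18 (median 180.5). The longest peaks of the list were on B73V4_ctg134, one of 27556 bp with 351 tags and one of 22848 bp with 336 tags. The 9 peaks of this contig covered 97.8% of it up to the last listed position. On 8 contigs a peak began within 50 bp of the first base, at the contig's edge, whereas 0 chromosomal peaks did so. The listed part of a contig had a median of 48.5 kb, and whole contig lengths were not used here.

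Set beside the ZmbZIP17 list, which was called against the same control libraries, the ZmbZIP60 list overlapped most in dense chromosomal loci. Of the 517 ZmbZIP60 peaks in chromosomal loci of 5 or more, 130 overlapped a ZmbZIP17 peak by at least 1 bp (25.1%, exact 95% interval 21.5 to 29.1). Of the 475 in loci of 2 to 4 it was 35 (7.37%, interval 5.19 to 10.1). For the 1497 single peaks it was 22 (1.47%, interval 0.923 to 2.22). By pileup, 180 of 1276 high-pileup peaks (14.1%) and 7 of 1213 low-pileup peaks (0.577%) overlapped one. Peaks in dense loci were also taller and longer than single peaks, and a longer peak is overlapped more easily. The parts of density, pileup and length were not told apart. The 517 peaks lay in 37 loci of 5 to 9 and 17 of 10 or more, and a ZmbZIP17 peak can overlap several of them. The intervals treat peaks as independent, so they may be too narrow. The ZmbZIP17 list held no contig peaks, so none of the 553 contig peaks of the ZmbZIP60 list could overlap it. In all, the overlap took in 6.15% of the ZmbZIP60 list and 78.4% of the ZmbZIP17 list. On chromosome 8 the ZmbZIP60 list had 163 peaks and the ZmbZIP17 list had 3, and on chromosome 4 they had 265 and 72. Summits were in the central part of 64.6% of ZmbZIP60 peaks and of 46.8% of the 282 ZmbZIP17 peaks (interval 40.9 to 52.8). The lists were scaled separately and differ in depth and in the fold that a call needed, and no difference between them was tested here.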

How the data were processed

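Reads of 9 ChIP-seq libraries, 6 of them in the groups used here, were processed by the authors with Trimmomatic 0.36, BWA, MACS2 and bedtools, per the submitters' processing notes; the sources used here give neither aligner settings nor a genome build. Contig names carry the mark B73V4, and coordinates are 1-based, as deposited. Per the file headers, MACS version 2.1.0.20150420 called peaks on merged libraries without a model, at a q cutoff of 0.05, with an extension of 200 bp, 1 tag kept per position and the larger dataset (the control) scaled down. Total tags were 25217251 for the pull-down and 51874666 for the control, of which 26% and 9% were redundant. The merged pull-down's name carries the numbers 1 and 3, and whether replicate 2 entered is not stated.

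The deposited values are the authors' own per peak: a pileup (signal, the coverage by extended tags), a fold (ratio of pull-down to local control), and the −log10 q of the MACS2 Poisson test. The deposited score column (10 times the −log10 q) was not used. The 3 files of the list agree in start and summit for 3042 peaks. The control level was recovered as (pileup + 1)/fold − 1 and, unscaled, multiplied by 2.52. It is the highest of several local means, and the unscaled value was whole within 0.02 for 78.8% of peaks. Chromosome spans end at the last listed peak. Loci join peaks less than 10000 bp apart. Intervals are exact Clopper-Pearson or Poisson at 95%. They treat peaks as independent, so they may be too narrow where peaks lie close together.

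Regions were named by fixed ranks: per chromosome the highest fold, pileup and length, the 10 highest of the list, the largest loci and contigs, and the nearest and farthest neighbours, with ties ordered by −log10 q. The 1 Mb windows, the fold classes and the pileup split were added with the data in view. Members and lists were chosen with earlier results of these data known. The recovery of loci and control levels was tested on simulated data. Alternatives were stricter fold and q, other distances, overlaps and splits. Figures were drawn with matplotlib 3.10.9, and values computed in Python 3.11.15 with scipy 1.17.1, pandas 2.3.3 and numpy 2.4.6.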

Additional observations from a re-analysis of the deposited data

How the results depend on the processing

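No paired analysis was possible because the libraries were merged before the call and the list carries no replicate numbers, so no replicate could be left out either. Of 31 settings compared over 13 values, 13 stayed within the 95% interval of the value or within 1.5 times it, and 18 moved. With a fold of at least 4 (1074 peaks), the share of peaks on contigs was 0.466% against 18.2% in the full list, the median pileup was 17 tags against 56, and the median length was 275 bp against 323 bp. With a −log10 q of at least 5 (2290 peaks), they were 21.3%, 82 tags and 350 bp. A fold filter removes high-control regions by construction. Under the q filter, 46.1% of peaks were alone in their locus against 50.5%, 68.8% of summits were central against 64.6%, and the median distance between summits was 378570 bp. In peaks of at least 300 bp, 53.3% of summits were central. Counted as loci, contigs held 7.21%, and the high-pileup share in the outer segments was 44.2%. Single peaks made up 62.4% with a joining distance of 1000 bp and 44.3% with 50000 bp. A split at 20 or 50 tags in place of 30 put 36.4% or 56.9% of chromosomal peaks in the low-pileup class against 48.7%. The overlap with the ZmbZIP17 list was 4.11% where 50% of the ZmbZIP60 peak had to be covered and 3.71% where summits had to lie within 100 bp. The highest chromosomal density was 1.73 times the lowest, and 1.39 to 1.98 times under the alternatives, but the chromosomes at both ends changed: chromosome 5 led and chromosome 4 was last by loci, by fold and by low-pileup peaks. Motif shares and distances to gene starts were not run, since no genome of the files' build was used. The settings on the split, on the course along chromosomes, on low-pileup densities and on windows of 10 or more peaks were chosen after seeing the data.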
